A study of Labrus bergylta with 77 samples.

Results

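The claudin genes of the ballan wrasse (Labrus bergylta) were the 47 rows, of 29932 in the deposited table, whose gene name starts with cldn or claudin with case ignored. No expression value entered this choice. The rows carry 20 different names. Of the rows, 45 are claudins and 2 are named CLDND1, a claudin domain-containing protein whose values are described apart. The 2 CLDND1 rows are nevertheless included in all counts, shares and sums of claudins below. Of the 47 rows, 44 passed the filter on low values. The other 3, CLDN10 (LABE_00038010), CLDN14 (LABE_00075920) and CLDN7 (LABE_00081307), did not. The names are those of the deposited table. None of its identifiers is found in the RefSeq gene list of this species, which holds 27 symbols starting with cldn but none named cldn3, cldn4, cldn6, cldn14, cldn20 or cldn22. The roles given here are therefore those known for mammalian genes of the same name and were not checked for the wrasse rows.

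The study asked how lymphoid and mucosal tissues form and what first feeds do to them, and sequenced messenger RNA from 77 pools, each of several whole larvae. Stages were defined by larval length and are called BW0 and BW2 to BW7. At every fed stage, 3 tanks (B5, B7 and B9) had been started on zooplankton and 3 tanks (B6, B8 and B10) on the control diet of rotifers and Artemia, with 2 pools per tank. Dry feed joined both diets at 40 days post hatch (dph) and replaced them at 56 dph.

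The 13 groups were as follows. Plankton and control larvae were both 9 dph at BW2, at 4.1 to 4.3 mm in plankton and 4.2 to 4.5 mm in control tanks. Plankton larvae were 18 dph and control larvae 16 dph at BW3, which had lengths of 5.7 to 6.1 mm. The ages were 28 dph (plankton) and 26 dph (control) at BW4, at 7.1 to 7.4 mm. At BW5 they were 41 dph (plankton) and 36 dph (control), at 10.1 to 10.6 mm, so that at this stage dry feed had reached the plankton tanks alone. Both diets were 58 to 59 dph at BW6, at 16.0 to 16.5 mm, and 79 to 80 dph at BW7, at 26.4 to 27.9 mm. The 13th group was 5 pools of unfed BW0 larvae from the incubators, 4 dph old and 4.0 mm long. RNA of BW0 was extracted with TRIzol and that of all other stages with QIAzol, so that reagent and stage cannot be told apart in any comparison with BW0. All larvae came from 1 broodstock, and the labels give no genotype.

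Claudins are membrane proteins that pair between neighbouring epithelial or endothelial cells and form the strands of the tight junction. Which claudins a sheet of cells makes sets whether the space between the cells is a seal or a selective pore for ions and water. Fish have many claudin genes, among them copies kept from genome and tandem duplications, and use them in skin, gill, gut, kidney and blood vessels. Tight junctions also hold occludin and junctional adhesion molecules in the membrane and scaffold proteins such as TJP1 (also called ZO-1) beneath it.

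Depth is unknown, because the values are TPM, transcript abundances per length with every library scaled to a sum of 1000000. Between 14958 and 19641 genes reached 1 TPM in a pool. The lowest numbers lay at BW2, with 14958 to 18957 genes, against 18836 to 19554 at BW3. Both ends of the BW2 range were pools of plankton tank B5. Their summed claudin values were 410 and 749 TPM, and the 2 pools were averaged like those of any tank. Of the 77 pools, 9 correlated better with another group than with their own, which were BW0 pool R3, pool R3 of plankton tank B5 and of control tank B8 at BW2, and 6 plankton pools of BW3 to BW7. They were kept. Claudin counts for BW7 against BW2, BW6 against BW5 and diet at BW2 are also given without them, as are some single rows. Most other counts, among them those of the remaining steps, are given with them only. Since whole larvae were measured, fewer cells of a type and less RNA per cell cannot be told apart in any value below. Nothing in the labels says that the pools of a tank are more than repeat samples of it, so tanks, and at BW0 pools, were the replicates. The tissue label was set against 9 lists of cell type markers, and markers of gut, skin and gill epithelium, vessels, myelin, liver, kidney, inner ear and leukocytes were all detected. A gene was called higher or lower in a comparison at an adjusted p under 0.05 in limma, with Benjamini-Hochberg adjustment over all 22028 genes tested. Each difference given is of log2(TPM + 1) values, with ± its standard error. Overlap of tanks between groups is stated for single rows as a description. How many of all genes lie apart in the same comparison was not counted.

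Summed over all rows, claudin messenger RNA was 866 TPM ± 139 (SD, n = 5) at BW0. The sums at BW2 were 539 TPM ± 47.1 in plankton tanks and 615 TPM ± 78 in control tanks (n = 3 each). From BW3 to BW7 they were 810, 665, 592, 726 and 655 TPM in plankton tanks and 789, 684, 606, 742 and 695 TPM in control tanks, so that the lowest sums were those of BW2 in plankton and BW5 in control tanks. The 5 rows of highest mean level were Cldn15 (LABE_00062457), with a mean of 101 TPM over the 13 groups, Cldn4 (LABE_00039329) with 73.2 TPM, cldn7a (LABE_00009382) with 70.6 TPM, CLDN19 (LABE_00067697) with 39.9 TPM and Cldn1 (LABE_00003994) with 34.8 TPM. Together they made up 41.3% of the claudin sum at BW0 and 41.1% to 51.2% at the fed stages. A group mean of 10 TPM or more was reached by 24 of the 47 rows, while 4 stayed under 1 TPM in every group mean, the 3 that were not tested and CLDN20 (LABE_00068441). CLDN14 (LABE_00075920) was listed at 0 in every pool.

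Most claudins had their highest stage mean either in the unfed larvae or late. Of the 44 tested rows, 21 were highest at BW0, 0 at BW2, 5 at BW3, 0 at BW4, 3 at BW5, 11 at BW6 and 4 at BW7. At BW0 that was 47.7% of the claudins against 30.7% of all genes tested, and at BW6 25% of the claudins against 10.8% of all genes. After division by size factors (1 scaling number per library from the median ratio over genes) 13 claudins were highest at BW0, 7 at BW2, 1 at BW3, 0 at BW4, 1 at BW5, 13 at BW6 and 9 at BW7, so the counts depend on the scaling. Stage changed 41 of the 44 claudins in limma's F test over the fed stages, but 95.4% of all genes passed that test.

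**Figure D1:**
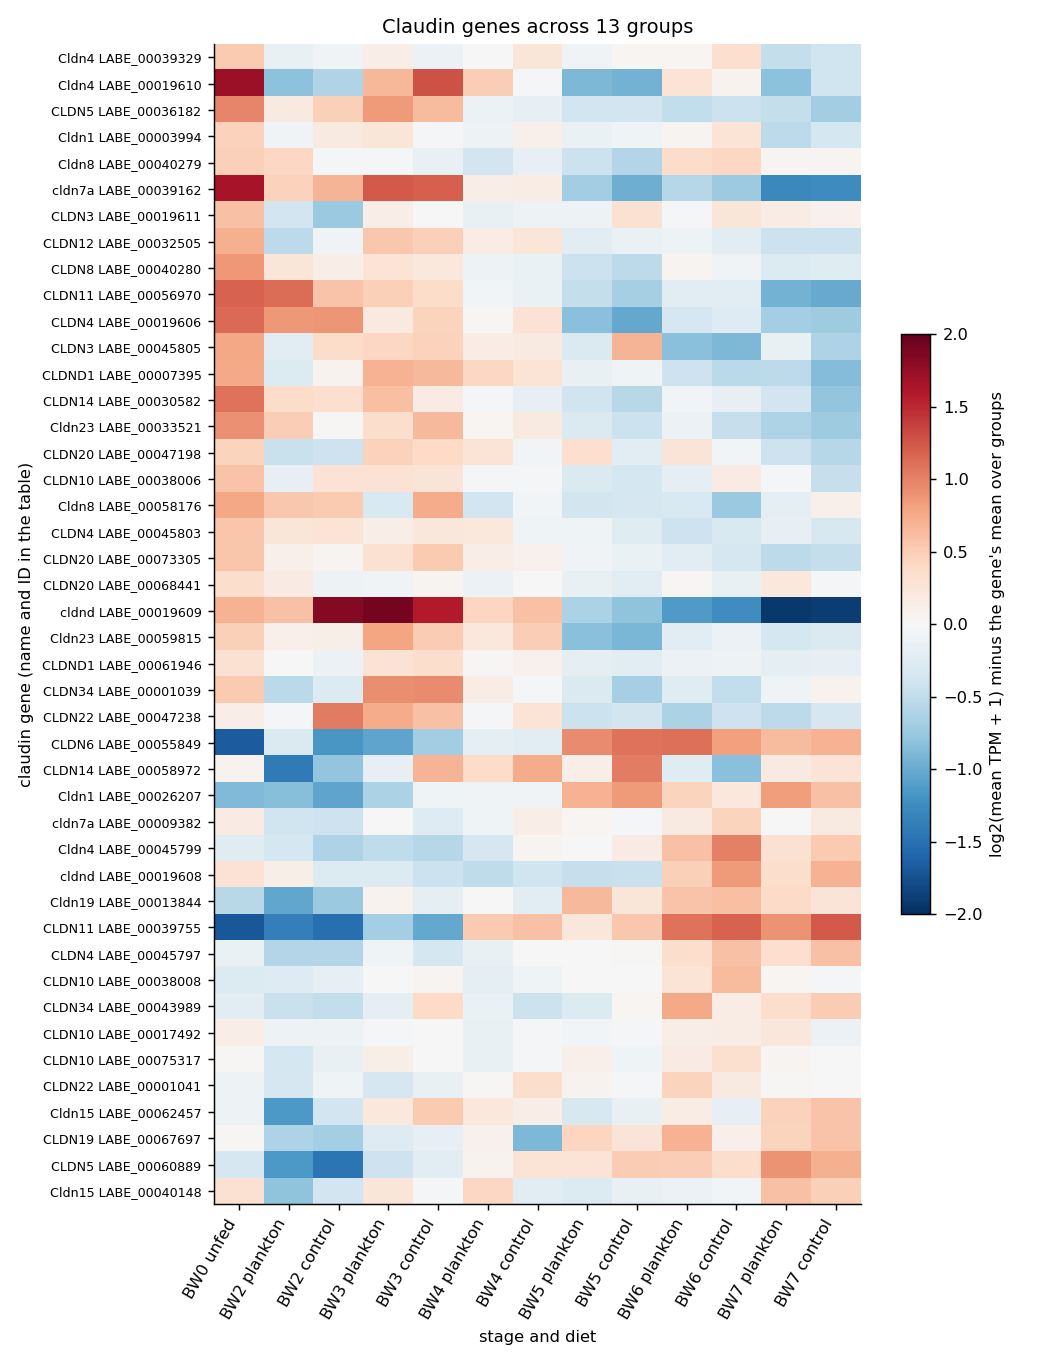
Each row is 1 of the 44 tested claudin rows and each column 1 of the 13 groups. Colour is log2(mean TPM + 1) minus the row's mean over groups, red above and blue below it, cut at -2 and 2. Rows are ordered by the stage of their highest mean, with the 21 highest at BW0 on top and the 4 highest at BW7 at the bottom. The rows of 1 name often lie far apart.

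The first comparison asked which claudins differed between the end and the start of feeding, BW7 against BW2, over both diets. Of the 44 tested, 17 were higher and 15 lower at BW7 (median difference 0.11). Of all genes tested, 34.7% were higher and 38% were lower (median -0.03), so the shares of the claudins, 38.6% and 34.1%, were near those of all genes. After size factors 20 were higher and 14 lower, 45.5% and 31.8%, beside 41.5% and 36.1% of all genes. Without the 9 pools that correlated better with another group, called the doubtful pools from here on, 21 were higher and 12 lower, 47.7% and 27.3%, beside 39.8% and 34.3% of all genes. The counts were also 21 and 12, of 42 tested, without the 9 pools whose title carries a space after BW (50% and 28.6%, beside 41.6% and 35.3%). Since 63.3% of all genes were already higher at BW3 than at BW2, a row higher at BW7 need not have risen over the later stages. Within names, the claudins were often split. Of 17 names with more than 1 tested row, 8 had rows called in opposite directions, and the same 8 after size factors. That is 47.1% of these claudin names, against 20% of all gene names with 2 to 6 tested rows (844 of 4217). After size factors it was the same 47.1%, against 23.7% of all such names (992 of 4194). This is a description, since the rows of a name are not independent and their relation by descent was not analysed here. Names were also not matched by number of rows or by level, and both can change how often opposite calls occur.

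CLDN5 is the main claudin of blood vessel endothelium and of the blood-brain barrier. The row LABE_00060889 lay at 24.5 to 33.2 TPM (median 28) over the 6 tanks of BW7 and at 3.07 to 9.46 TPM (median 5.27) at BW2. Every BW7 tank was above every BW2 tank, by 2.25 ± 0.19 (adjusted p = 1.83e-12). The other CLDN5 row, LABE_00036182, lay at 14.5 to 21.1 TPM (median 16.3) at BW7 and 24.8 to 52.8 TPM (median 29.8) at BW2 and was lower by -0.82 ± 0.14 (adjusted p = 4.99e-06). The rows thus changed places: LABE_00036182 was the higher of the 2 rows at BW2 and the lower at BW7. Their mean levels at BW0, BW2, BW3, BW4, BW5, BW6 and BW7 were 12.3, 5.86, 12.6, 18.1, 21.1, 21.6 and 28.4 TPM for LABE_00060889, and 52.3, 33.2, 44.3, 23.6, 19.7, 18.7 and 17 TPM for LABE_00036182. Over the 13 group means the 2 rows had a Pearson's r of -0.72, a description over groups that share tanks. Among the endothelial markers, 7 of 10 tested were higher and 0 lower at BW7 (median 0.49). That is 70% and 0%, beside 34.7% and 38% of all genes. Myelin, enterocyte and epithelial markers were also called higher more often than lower, as given below. So were leukocyte (7 of 7 higher, 100%), liver (hepatocyte, 8 of 9, 88.9%, with 1 lower) and ionocyte markers (9 of 13, 69.2%, with 1 lower). This balance was thus not particular to the endothelial list. The endothelial sum at BW7 was 63.5 TPM (61.3 to 65.7) in plankton and 57.2 TPM (56.2 to 58.9) in control tanks. At BW2 it was 35.9 TPM (34.6 to 38.4) in plankton and 38.9 TPM (32.5 to 48.2) in control tanks. No endothelial marker row was at 0 in every pool of a group at either stage, and the part of these markers in the CLDN5 values was not tested.

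CLDN11 is the claudin of central nervous myelin and of Sertoli cells in mouse. Row LABE_00039755 was at or near 0 in the youngest larvae, with 0 to 0.316 TPM in the BW0 pools and 0 to 0.652 TPM (median 0.372) at BW2, and reached 4.04 to 9.57 TPM (median 6.09) at BW7. Its difference between BW7 and BW2 was 2.51 ± 0.21 (adjusted p = 3.09e-12), the largest increase of any claudin in that comparison. Row LABE_00056970 moved the other way, with 1.81 to 2.48 TPM (median 1.92) at BW7 and 6.96 to 13.2 TPM (median 9.58) at BW2 (-1.81 ± 0.13, adjusted p = 2.34e-14). Neither row's BW7 tanks overlapped its BW2 tanks. The r of the 2 rows over group means was -0.89. Of 14 tested myelin marker rows, 9 (64.3%) were higher and 4 (28.6%) lower at BW7 (median 0.58), beside 34.7% and 38% of all genes. Their sum was 394 TPM (373 to 418) in plankton and 381 TPM (373 to 395) in control tanks at BW7, against 90.2 TPM (83.1 to 94.2) and 95.2 TPM (89.8 to 105) at BW2. Of the 22 myelin rows matched, 2 rows named MAG were at 0 in every plankton pool of BW2 and 1 in every control pool. Their part in the CLDN11 values was not tested.

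CLDN19, known from the myelin of peripheral nerve and from kidney tubules in mouse, had no such split. Cldn19 (LABE_00013844) lay at 27.9 to 31.9 TPM (median 30.3) at BW7 and 7.65 to 19.1 TPM (median 11.4) at BW2, a difference of 1.38 ± 0.19 (adjusted p = 7.83e-08). CLDN19 (LABE_00067697) lay at 37 to 65.6 TPM (median 55.3) at BW7 and 15.3 to 39.2 TPM (median 21.1) at BW2 and was higher by 1.15 ± 0.17 (adjusted p = 5.38e-07). Tanks of the first row did not overlap between the stages, while those of the second did. Both rows also stood higher at BW0 than their BW2 means, at 15.8 and 38.3 TPM, although of these only the second was called between BW2 and BW0.

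CLDN15 forms sodium pores in the mouse gut. Both rows were higher at BW7. Cldn15 (LABE_00062457) lay at 109 to 156 TPM (median 143) at BW7, against 30.6 to 86.2 TPM (median 61.2) at BW2, with no overlap (1.35 ± 0.17, adjusted p = 1.84e-08). Its stage means from BW0 to BW7 were 89.8, 58.7, 126, 109, 82.4, 96.6 and 139 TPM, so that BW2 was its lowest stage and BW3 was already near BW7. Its fellow LABE_00040148 averaged 2.73 TPM ± 0.608 at BW7 and 0.721 TPM ± 0.479 at BW2 (n = 6 each), higher by 1.17 ± 0.18. Of 26 tested enterocyte marker rows, 18 (69.2%) were higher and 3 (11.5%) lower at BW7 (median 0.79), beside 34.7% and 38% of all genes. Their sum ran less evenly, at 2415 TPM (plankton) and 2879 TPM (control) at BW7, against 1559 TPM (plankton) and 2803 TPM (control) at BW2. Their part in the Cldn15 values was not tested.

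Among claudins of lining epithelia, the split recurred. The fish claudin cldnd showed the largest fall of all: row LABE_00019609 lay at 4.02 to 6.18 TPM (median 4.13) at BW7 and 21.5 to 91.7 TPM (median 55.6) at BW2 (-3.17 ± 0.15, adjusted p = 1.87e-18). Row LABE_00019608 was higher at BW7 by 0.60 ± 0.14 (adjusted p = 0.000389), at 21.8 to 38.9 TPM (median 30.4) at BW7 and 15 to 26.6 TPM (median 18.5) at BW2, with some overlap of the tanks. The r of the cldnd rows was -0.61. For cldn7a, named after an epithelial claudin of gut and kidney, row LABE_00039162 lay at 1.66 to 3.41 TPM (median 2.6) at BW7 and 6.94 to 16.7 TPM (median 10.8) at BW2 (-1.78 ± 0.21, adjusted p = 3.41e-09). The abundant row LABE_00009382 was higher by 0.51 ± 0.12 (adjusted p = 0.000255), at 68.9 to 83 TPM (median 73.7) at BW7 and 48.5 to 56.1 TPM (median 52.4) at BW2. Neither cldn7a row's tanks overlapped between the stages, and their r was -0.40.

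Cldn1, needed for the skin barrier in mouse, was split between an abundant and a rare row. LABE_00003994 lay at 19.9 to 28.1 TPM (median 25.4) at BW7 and 28.6 to 40.5 TPM (median 36.4) at BW2 (-0.50 ± 0.12, adjusted p = 0.000336). LABE_00026207 lay at 2 to 4.42 TPM (median 2.6) at BW7 and was hardly detected at BW2, at 0 to 0.548 TPM (median 0.179) (1.66 ± 0.20, adjusted p = 5.91e-09). The order of the 2 rows did not change, since the abundant row stayed the higher at every stage.

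CLDN3 and CLDN4 are claudins of many lining epithelia. CLDN3 (LABE_00019611) was higher at BW7 by 0.79 ± 0.14 and CLDN3 (LABE_00045805) lower by -0.46 ± 0.18 (adjusted p = 1.25e-05 and 0.0224). The first row's stage means from BW0 to BW7 were 21.9, 9.38, 15, 12.9, 15.5, 15.5 and 15.6 TPM. It was thus lowest at BW2 and changed little from BW3 on. Of 6 CLDN4 rows, 2 were higher and 3 lower. CLDN4 (LABE_00019606) lay at 1.93 to 3.09 TPM (median 2.73) at BW7 and 8.25 to 12.3 TPM (median 9.48) at BW2, which did not overlap (-1.58 ± 0.14, adjusted p = 4.93e-12). The most abundant, Cldn4 (LABE_00039329), fell by 0.33 on the log2 scale, to 47.3 to 57.4 TPM (median 53.4) at BW7, against 61.8 to 71.2 TPM (median 66.2) at BW2. LABE_00045803 was lower too, by -0.50 ± 0.12, but stayed under 2 TPM throughout. LABE_00045799 and LABE_00045797 were higher by 0.92 ± 0.14 and 1.05 ± 0.13. These 2 rows ran side by side over the 13 group means (r 0.91). The remaining row, Cldn4 (LABE_00019610), was not called between BW7 and BW2, at 12.7 TPM ± 2.86 at BW7 and 11.6 TPM ± 6.42 at BW2. Its larger changes lay in single steps, among them -2.58 from BW0 to BW2 and 2.11 from BW2 to BW3, as given below. Of 22 epithelial marker rows, 16 (72.7%) were higher and 1 (4.55%) lower at BW7 (median 0.60), beside 34.7% and 38% of all genes. Their sum was 591 TPM (565 to 627) in plankton and 695 TPM (642 to 743) in control tanks at BW7, against 459 TPM (394 to 536) in plankton and 354 TPM (335 to 369) in control tanks at BW2. No row of that list was at 0 in every pool of a group, and the part of these markers in the claudin values was not tested.

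CLDN14 is found in the inner ear and the kidney in mouse. Row LABE_00058972 lay at 3.93 to 7.67 TPM (median 5.67) at BW7 and 0.213 to 3.37 TPM (median 1.84) at BW2, without overlap (1.51 ± 0.20, adjusted p = 5.47e-08). Its stage means from BW0 to BW7 were 5.08, 1.76, 6.28, 7.6, 8.08, 3.09 and 5.8 TPM, so that BW2 was the lowest and BW7 stood near BW0 and BW3. Row LABE_00030582 was lower by -0.90 ± 0.13 (adjusted p = 3.44e-07), at 1.5 TPM ± 0.47 at BW7 and 3.71 TPM ± 0.855 at BW2. Inner ear markers were 2 higher and 3 lower of 6 tested, and their sum was 11.6 TPM (9.67 to 12.8) in plankton and 12.9 TPM (10.7 to 14.5) in control tanks at BW7, against 311 TPM (266 to 350) and 234 TPM (218 to 265) at BW2. Of the kidney tubule markers 5 were higher and 5 lower of 13 tested, with sums of 207 TPM (186 to 246) in plankton and 227 TPM (177 to 285) in control tanks at BW7, against 41 TPM (32.4 to 54.8) in plankton and 38.8 TPM (34.2 to 46.6) in control tanks at BW2. The shares higher and lower were 33.3% and 50% for inner ear and 38.5% each for kidney rows, beside 34.7% and 38% of all genes. Their median differences were -0.23 and 0.21, so the large changes in the sums do not hold for most rows. The part of either list in the CLDN14 values was not tested.

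CLDN6, an early epithelial claudin in the mouse embryo, has a single row (LABE_00055849). Its stage means were 1.33, 3.66, 3.07, 5.41, 13.9, 13.4 and 10.7 TPM at BW0, BW2, BW3, BW4, BW5, BW6 and BW7, so that the wrasse row was lowest in the youngest larvae. At BW7 it lay at 9.03 to 12.7 TPM (median 10.1) and at BW2 at 1.93 to 5.49 TPM (median 3.7), and was higher by 1.41 ± 0.12 (adjusted p = 4.97e-12).

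Among the remaining names, Cldn23 (LABE_00033521) was lower at BW7, at 0.661 to 1.74 TPM (median 1.11) against 1.77 to 3.93 TPM (median 3.17) at BW2 (-0.93 ± 0.11, adjusted p = 1.04e-08), while the abundant Cldn23 (LABE_00059815) was not called. Of 4 tested rows of CLDN10, which forms ion pores in the kidney, 2 were higher, by 0.22 and 0.31, and none was lower. Of 3 rows of CLDN8, a claudin of the collecting duct, 1 was lower, CLDN8 (LABE_00040280), by -0.39 ± 0.16. CLDN34 (LABE_00043989), CLDN20 (LABE_00073305) and CLDN22 (LABE_00047238) differed by 0.88, -0.50 and -0.76, and each stayed under 3 TPM in every group mean. The single CLDN12 row was not called. Of the CLDND1 rows, LABE_00007395 was lower by -0.50 ± 0.18 and LABE_00061946 was not called, with stage means between 18.3 and 26.5 TPM and the smallest spread between tanks of all tested rows.

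**Figure D2:**
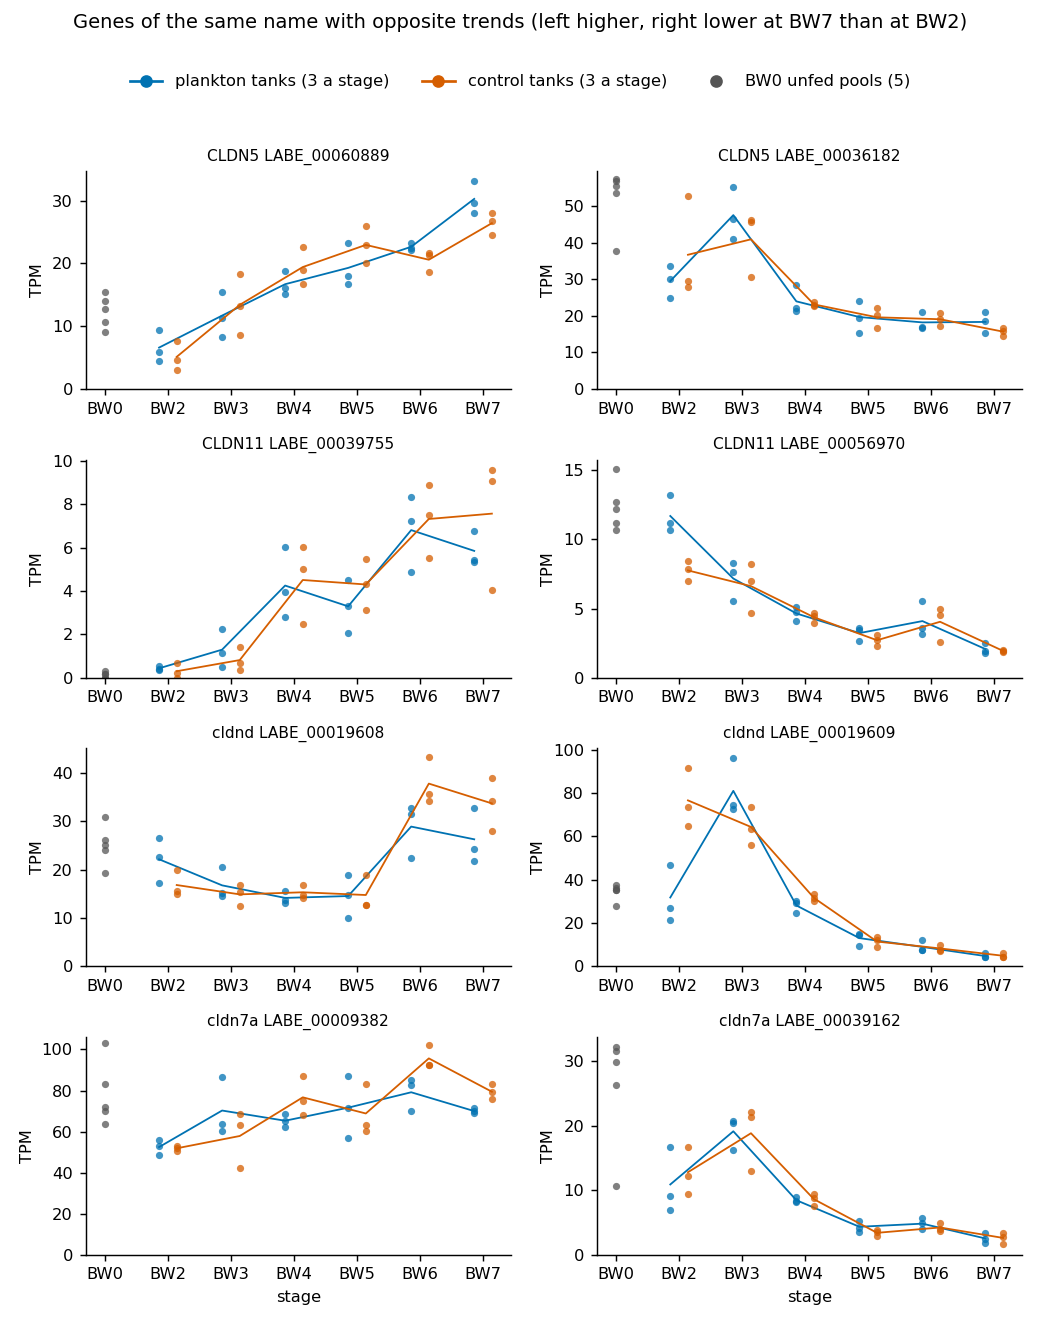
TPM on the y axis against stage on the x axis for 4 claudin names with rows called in opposite directions between BW7 and BW2. The left column holds the higher row of each name and the right column the lower one. Points are tanks (blue plankton, orange control) or unfed pools (grey), lines join the means of 3 tanks. CLDN5 LABE_00060889 lies at 24.5 to 33.2 TPM at BW7 and LABE_00036182 at 14.5 to 21.1 TPM.

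The next comparisons followed each step between stages. The step from unfed BW0 to BW2 lowered most claudins together with most genes. Of 44 claudins, 2 were higher and 30 lower at BW2 (median -0.43). Of all genes 3.8% were higher and 59.4% lower (median -0.37), a general shift that size factors removed, after which 3 claudins were higher and 9 lower (6.82% and 20.5%, median -0.09), beside 21.6% and 21.6% of all genes. The 2 higher rows held under both scalings. CLDN6 (LABE_00055849) lay at 1.93 to 5.49 TPM (median 3.7) at BW2, and the 5 BW0 pools had 1.89, 1.68, 1.19, 0.664 and 1.22 TPM (0.93 ± 0.13, adjusted p = 7.1e-07, and 1.25 after size factors). The row cldnd LABE_00019609 was higher by 0.46 ± 0.16 (adjusted p = 0.0129, and 0.96 after size factors), but its call was lost without tank B5 (0.31) or B8 (0.39), and without the pools with a spaced title (0.66), which leaves pool R3 as the only BW0 pool. Its BW2 tanks, at 21.5 to 91.7 TPM, spanned the BW0 pools, at 27.8 to 37.3 TPM, and divided by diet as described further on.

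Of the lower rows, Cldn4 (LABE_00019610) had 5.32 to 19.8 TPM (median 10.1) at BW2 and 10.4, 69.5, 75.6, 92.5 and 85.7 TPM in the BW0 pools. Only BW0 pool R3, at 10.4 TPM, lay within the range of BW2, and it is a pool that correlated better with BW2 control pools than with the other BW0 pools. The difference was -2.58 ± 0.34 (adjusted p = 5.14e-07), -3.14 without R3 and -2.10 after size factors. It was -0.95 and not called when the pools with a spaced title were left out. CLDN14 (LABE_00058972) was lower by -1.39 ± 0.21 (adjusted p = 2.97e-06), at 0.213 to 3.37 TPM (median 1.84) at BW2 against 3.4, 7.03, 5.2, 4.51 and 5.27 TPM at BW0. CLDN3 (LABE_00019611) was lower by -1.25 ± 0.15 (adjusted p = 1.26e-07), at 6.16 to 11.5 TPM (median 10.2) against 13.6, 22.7, 24.4, 26.4 and 22.6 TPM. Both rows were also lower after size factors, by -1.08 and -0.77. Without R3 the counts were again 2 higher and 30 lower, 4.55% and 68.2%, beside 4.49% and 63.1% of all genes. R3 is also the only BW0 pool whose title has no space after BW. Leaving out the pools with a spaced title keeps R3 alone at BW0. The median difference was then -0.46 for claudins and -0.17 for all genes. Stage and style of title can thus hardly be told apart in this step.

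From BW2 to BW3 the general shift went the other way. At BW3, 24 claudins were higher and 2 lower (median 0.35), beside 63.3% and 5.45% of all genes (median 0.42). After size factors 11 claudins were higher and 12 lower (25% and 27.3%, median -0.09), beside 29.7% and 28.9% of all genes. Cldn4 (LABE_00019610) lay at 28.2 to 51.3 TPM (median 40.2) at BW3 and 5.32 to 19.8 TPM (median 10.1) at BW2 (2.11 ± 0.33, adjusted p = 1.94e-06, and 1.58 after size factors). CLDN14 (LABE_00058972) was higher by 1.54 ± 0.20 (adjusted p = 1.47e-07, and 1.18 after size factors), at 2.63 to 8.87 TPM (median 7.03) at BW3 and 0.213 to 3.37 TPM (median 1.84) at BW2. CLDN34 (LABE_00001039) was higher by 1.36 ± 0.20 (adjusted p = 1.1e-06, and 0.84 after size factors), at 11.5 to 17.5 TPM (median 15.8) at BW3 and 3.46 to 7.48 TPM (median 5.53) at BW2. Tanks of the Cldn4 and CLDN34 rows did not overlap between the stages, and those of CLDN14 did.

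The 2 lower rows at BW3 went against the general shift. CLDN4 (LABE_00019606) lay at 5.02 to 8.54 TPM (median 6.38) at BW3 and 8.25 to 12.3 TPM (median 9.48) at BW2 (-0.54 ± 0.14, adjusted p = 0.000773). CLDN11 (LABE_00056970) lay at 4.67 to 8.31 TPM (median 7.32) at BW3 and 6.96 to 13.2 TPM (median 9.58) at BW2 (-0.44 ± 0.13, adjusted p = 0.00258). After size factors the differences were -1.05 and -0.95. Both rows overlapped between the stages, and neither was called in control tanks alone (-0.40 and -0.23).

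At BW4, compared with BW3, 4 claudins were higher and 8 lower, 9.09% and 18.2%, beside 6.26% and 22.8% of all genes (median -0.18 for claudins and -0.12 for all genes). After size factors 4 were higher and 6 lower, 9.09% and 13.6%, beside 11.3% and 10.8% of all genes. CLDN11 (LABE_00039755) lay at 2.49 to 6.03 TPM (median 4.46) at BW4 and 0.347 to 2.22 TPM (median 0.912) at BW3 (1.39 ± 0.21, adjusted p = 1.02e-05). CLDN6 (LABE_00055849) lay at 4.41 to 6.38 TPM (median 5.39) at BW4 and 1.6 to 3.75 TPM (median 3.24) at BW3 (0.71 ± 0.12, adjusted p = 5.33e-05). Neither overlapped between the stages, though the CLDN6 difference was not called in control tanks alone (0.49). CLDN5 (LABE_00060889) lay at 15.2 to 22.6 TPM (median 17.7) at BW4 and 8.29 to 18.4 TPM (median 12.3) at BW3 (0.54 ± 0.19, adjusted p = 0.0269). Those tanks overlapped, and the call was lost without tank B6, B7 or B10 (0.42 to 0.60), without the 9 doubtful pools (0.56) and in either diet alone.

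The row cldnd LABE_00019609 had the largest decrease at BW4, with 24.6 to 33.2 TPM (median 30.1) at BW4 and 56 to 95.9 TPM (median 73) at BW3 (-1.25 ± 0.15, adjusted p = 2.45e-07). cldn7a (LABE_00039162) lay at 7.61 to 9.46 TPM (median 8.51) at BW4 and 13 to 22.1 TPM (median 20.6) at BW3 (-1.05 ± 0.21, adjusted p = 0.000262). CLDN34 (LABE_00001039) lay at 6.98 to 9.93 TPM (median 7.6) at BW4 and 11.5 to 17.5 TPM (median 15.8) at BW3 (-0.88 ± 0.20, adjusted p = 0.00137). None of these 3 overlapped between the stages, and the call of CLDN34 was lost in plankton tanks alone (-0.79). CLDN5 (LABE_00036182, -0.87 ± 0.14) and CLDN11 (LABE_00056970, -0.49 ± 0.13) were also lower here, so that both names had rows called in opposite directions within this single step.

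At BW5, compared with BW4, 4 claudins were higher and 13 lower, 9.09% and 29.5%, beside 10.6% and 39.1% of all genes (median -0.15 for claudins and -0.22 for all genes). The balance of the calls rested on the scaling, since after size factors 9 were higher and 5 lower, 20.5% and 11.4%, beside 21.8% and 15.2% of all genes. CLDN6 (LABE_00055849) lay at 12.7 to 15 TPM (median 13.9) at BW5 and 4.41 to 6.38 TPM (median 5.39) at BW4 (1.23 ± 0.12, adjusted p = 1.74e-09), with no overlap. CLDN19 (LABE_00067697) lay at 37.4 to 64.2 TPM (median 47.6) at BW5 and 18.7 to 41.9 TPM (median 29.8) at BW4 (0.75 ± 0.17, adjusted p = 0.000713). Cldn19 (LABE_00013844) lay at 24.2 to 40.6 TPM (median 32.1) at BW5 and 19.1 to 26.4 TPM (median 22.1) at BW4 (0.54 ± 0.19, adjusted p = 0.0174). Both of these overlapped between the stages. The first lost its call in plankton tanks alone (0.32), and the second without tank B5, B6, B7 or B10 (0.49 to 0.55) and in either diet alone.

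Lower at BW5 was the abundant row Cldn23 (LABE_00059815), with 13 to 23.5 TPM (median 15) at BW5 and 28.2 to 55.3 TPM (median 41) at BW4 (-1.25 ± 0.21, adjusted p = 1.57e-05). The row cldnd LABE_00019609 lay at 8.8 to 15 TPM (median 12.7) at BW5 and 24.6 to 33.2 TPM (median 30.1) at BW4 (-1.24 ± 0.15, adjusted p = 7.65e-08). Cldn4 (LABE_00019610) lay at 7.04 to 13.8 TPM (median 9.38) at BW5 and 16.9 to 31.1 TPM (median 23.2) at BW4 (-1.15 ± 0.33, adjusted p = 0.0044). No tank of BW5 reached the range of BW4 for these 3 rows, and all 3 were called lower after size factors too. Cldn4 was not called in either diet alone (-1.37 in plankton and -0.94 in control tanks).

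The step to BW6, over which all tanks passed to dry feed, had the widest gap between the share of claudins and the share of all genes called higher as deposited. Of 44 claudins, 14 were higher and 3 lower at BW6 than at BW5, 31.8% and 6.82%, beside 18.1% and 24.4% of all genes (median 0.15 for claudins and -0.08 for all genes). After size factors 18 were higher and 3 lower, 40.9% and 6.82%, beside 24.7% and 22.3% of all genes. Without the doubtful pools the shares were 29.5% and 9.09%, beside 17.5% and 26.4%. Without tank B9 only 11 in all were called, 18.6% higher and 6.98% lower, beside 14.4% and 26.4% of all genes. In plankton tanks alone the shares were 11.4% and 0%, beside 11.2% and 11.7%. The share called higher was then near that of all genes. In control tanks alone they were 16.3% and 4.65%, beside 10.3% each way of all genes. The second row of cldnd, LABE_00019608, lay at 22.4 to 43.4 TPM (median 33.6) at BW6 and 9.96 to 18.8 TPM (median 13.7) at BW5 (1.16 ± 0.14, adjusted p = 9.55e-08). Cldn8 (LABE_00040279) lay at 25.5 to 36.4 TPM (median 34.2) at BW6 and 13.9 to 21.5 TPM (median 16.6) at BW5 (0.91 ± 0.15, adjusted p = 8.59e-06). Every BW6 tank was above every BW5 tank for both rows. Cldn4 (LABE_00019610) lay at 11.3 to 30.1 TPM (median 24.8) at BW6 and 7.04 to 13.8 TPM (median 9.38) at BW5 (1.03 ± 0.33, adjusted p = 0.0117), with overlap. Its call was lost without tank B6, B7, B8 or B9 (0.88 to 0.99) and in either diet alone. Of the 6 CLDN4 rows, 4 were higher, among them Cldn4 (LABE_00045799), at 52.3 TPM ± 9.96 at BW6 and 31.2 TPM ± 6.87 at BW5 (0.76 ± 0.14).

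Epithelial markers were 13 higher and 1 lower of 22 at BW6 (median 0.41), 59.1% and 4.55%, beside 18.1% and 24.4% of all genes. Their sums were 784 TPM (668 to 876) in plankton and 895 TPM (876 to 932) in control tanks at BW6 and 547 TPM (432 to 670) in plankton and 585 TPM (507 to 718) in control tanks at BW5. All 7 leukocyte markers were higher as well (median 1.14). No epithelial marker row was at 0 in every pool of these groups, and the part of these markers in the claudin counts was not tested.

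Lower at BW6 than at BW5 were 3 rows. CLDN14 (LABE_00058972) lay at 1.84 to 4.49 TPM (median 3.15) at BW6 and 4.51 to 12.5 TPM (median 7.59) at BW5 (-1.16 ± 0.20, adjusted p = 2.24e-05). CLDN3 (LABE_00045805) lay at 1.48 to 3.49 TPM (median 2.11) at BW6 and 3.57 to 16.1 TPM (median 4.79) at BW5 (-0.98 ± 0.18, adjusted p = 5.69e-05). Neither overlapped, and both calls were lost in plankton tanks alone (-0.36 and -0.59), while control tanks alone gave -1.97 and -1.38. The row cldnd LABE_00019609 lay at 7.18 to 11.9 TPM (median 7.53) at BW6 and 8.8 to 15 TPM (median 12.7) at BW5 (-0.47 ± 0.15, adjusted p = 0.0116). These tanks overlapped, and the call was lost without tank B8 (-0.41) or B9 (-0.37) and in either diet alone.

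In the last step, to BW7, 4 claudins were higher and 10 lower, 9.09% and 22.7%, beside 11.6% and 25.4% of all genes (median -0.19 for claudins and -0.10 for all genes). After size factors 7 were higher and 8 lower, 15.9% and 18.2%, beside 21.7% and 19.8% of all genes. Without tank B5 only 9 in all were called, 2.27% higher and 18.2% lower, beside 8.61% and 20.5% of all genes. CLDN14 (LABE_00058972) lay at 3.93 to 7.67 TPM (median 5.67) at BW7 and 1.84 to 4.49 TPM (median 3.15) at BW6 (0.77 ± 0.20, adjusted p = 0.00288). Cldn15 (LABE_00062457) lay at 109 to 156 TPM (median 143) at BW7 and 73.9 to 137 TPM (median 92.5) at BW6 (0.55 ± 0.17, adjusted p = 0.0111). CLDN3 (LABE_00045805) lay at 2.55 to 5.73 TPM (median 3.14) at BW7 and 1.48 to 3.49 TPM (median 2.11) at BW6 (0.48 ± 0.18, adjusted p = 0.0363). All 3 overlapped between the stages. In plankton tanks alone CLDN14 (0.34) and Cldn15 (0.35) were not called, and in control tanks alone CLDN3 (0.27) was not. The Cldn15 call was also lost without tank B5, B8 or B10 (0.44 to 0.50), and that of CLDN3 without tank B5, B6 or B8 (0.29 to 0.47).

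Lower at BW7 was cldnd LABE_00019609, at 4.02 to 6.18 TPM (median 4.13) at BW7 and 7.18 to 11.9 TPM (median 7.53) at BW6 (-0.79 ± 0.15, adjusted p = 9.85e-05). CLDN11 (LABE_00056970) lay at 1.81 to 2.48 TPM (median 1.92) at BW7 and 2.57 to 5.53 TPM (median 4.06) at BW6 (-0.72 ± 0.13, adjusted p = 2.98e-05). cldn7a (LABE_00039162) lay at 1.66 to 3.41 TPM (median 2.6) at BW7 and 3.72 to 5.66 TPM (median 4.46) at BW6 (-0.65 ± 0.21, adjusted p = 0.0128). None of the 3 overlapped between the stages, but the call of cldn7a was lost without tank B5, B9 or B10 (-0.49 to -0.58) and in either diet alone. The abundant Cldn4 (LABE_00039329) and Cldn1 (LABE_00003994) were lower as well, by -0.63 ± 0.10 and -0.62 ± 0.12.

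**Figure D3:**
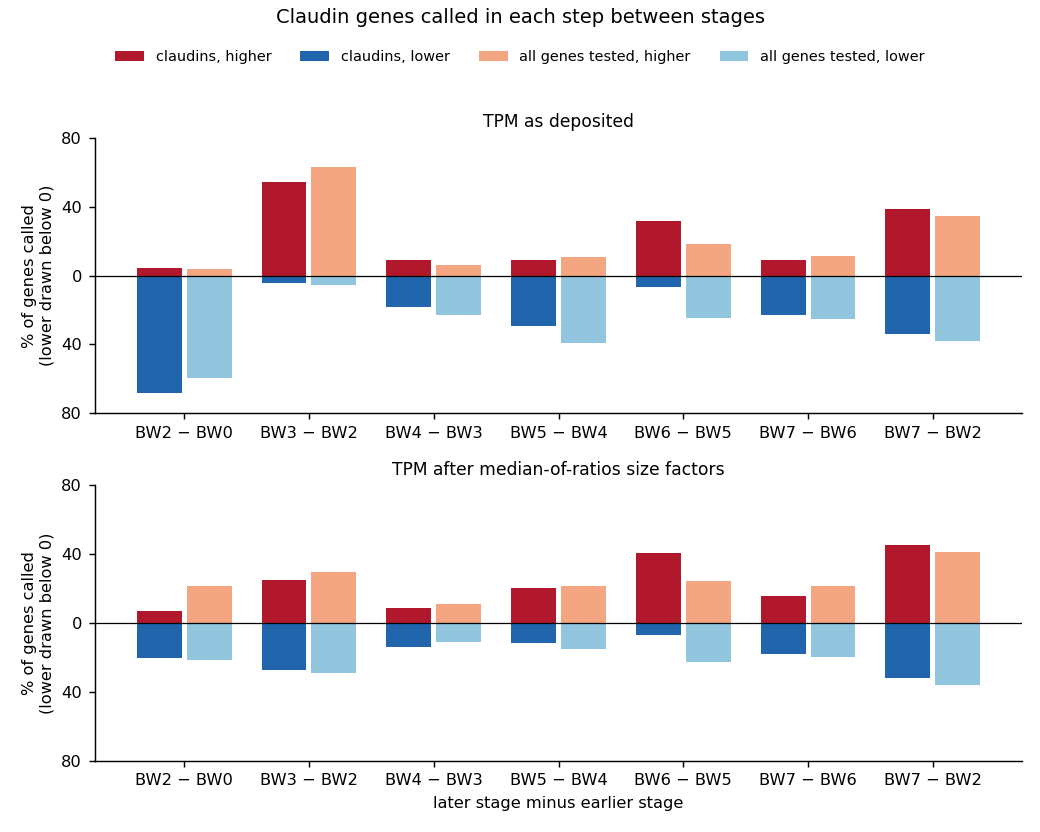
Share of the 44 tested claudins (dark bars) and of all genes tested (pale bars) called higher (above 0) or lower (drawn below 0) in each step and between BW7 and BW2. The upper panel holds TPM as deposited and the lower one TPM after size factors. The shares differ most from BW5 to BW6, where 31.8% of claudins and 18.1% of all genes were higher as deposited.

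The diet comparisons asked whether larvae started on zooplankton differed from those on rotifers and Artemia at the same stage. At BW2, 3 claudins were higher and 3 lower in plankton tanks (6.82% each), beside 9.49% higher and 19.7% lower of all genes (medians -0.06 and -0.10). After size factors 5 were higher and 3 lower, 11.4% and 6.82%, beside 19.2% and 16.7% of all genes. A fit of the BW2 tanks alone called 1 higher and 2 lower of 35 claudins, 2.86% and 5.71%, beside 5.24% and 11.8% of all genes. Without the 9 doubtful pools 3 were higher and 7 lower, 6.82% and 15.9%, beside 9.62% and 32.1% of all genes. In each of these settings the claudins' share of lower rows was under that of all genes.

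The clearest diet difference was in cldnd (LABE_00019609), which had 46.7, 21.5 and 26.9 TPM in plankton tanks, against 73.3, 91.7 and 64.6 TPM in control tanks. All plankton tanks were lower, by -1.31 ± 0.21 (adjusted p = 2.31e-05), and the control tanks lay above the unfed pools (27.8 to 37.3 TPM). Cldn15 (LABE_00062457), the claudin of highest mean level over the groups, had 60, 39.3 and 30.6 TPM in plankton tanks and 62.5, 86.2 and 73.7 TPM in control tanks (-0.90 ± 0.24, adjusted p = 0.00478). These groups also did not overlap, though the nearest tanks were 60 and 62.5 TPM. The call was lost without tank B8 (-0.78). Both differences were at least as large without the pools that correlated better with another group (-1.41 and -1.16). Those pools were picked by the same expression values, so leaving them out is not an independent check. Enterocyte markers were lower in plankton tanks for 5 of 26 rows and higher for 0 (median -0.27). That is 19.2% lower, near the 19.7% of all genes, and without the doubtful pools it was 38.5% against 32.1%. After size factors 2 rows were higher and 5 lower (median -0.14). These were 7.69% and 19.2%, beside 19.2% and 16.7% of all genes. The markers had sums of 1559 TPM (1179 to 1867) in plankton and 2803 TPM (2552 to 3030) in control tanks. Of the 27 matched enterocyte rows 1, a CDHR5 row, was at 0 in every plankton pool. FABP2, a fatty acid carrier of the enterocyte that no naming rule covers, was at 288 TPM in plankton and 1026 TPM in control tanks for its main row. A large part of the gap between the marker sums thus lay in this row. Liver (hepatocyte) markers fell more, with 5 of 9 rows lower and 0 higher (55.6% and 0%, median -1.18). The share lower was also 55.6% after size factors and without the doubtful pools. Of 13 ionocyte rows, 3 were lower and 0 higher (23.1% and 0%). Epithelial, inner ear and kidney tubule rows were more often higher than lower, 2 and 0 of 22, 2 and 1 of 6 and 1 and 0 of 13. The shares higher were 9.09%, 33.3% and 7.69%, beside 9.49% of all genes, so those of epithelium and kidney were not above it. Without the doubtful pools 1 inner ear row was higher and 1 lower, and 1 kidney row higher and 2 lower. The balance of these 2 lists thus rested on those pools. The part of the enterocyte markers, or of any other list, in the Cldn15 difference was not tested.

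CLDN22 (LABE_00047238) was the third lower row, with 0.546, 1.39 and 0.278 TPM in plankton and 0.432, 5.04 and 2.36 TPM in control tanks (-1.01 ± 0.30, adjusted p = 0.0104). Its groups overlapped, and the difference was -0.52 and uncalled without tank B8 and -0.87 and uncalled without B9. CLDN6 (LABE_00055849) was higher in plankton tanks, at 4.41, 5.2 and 5.49 TPM, than in control tanks, at 1.93, 3 and 1.95 TPM (0.88 ± 0.17, adjusted p = 0.000251). The groups did not overlap, and both lay above the BW0 pools, whose highest value was 1.89 TPM. CLDN11 (LABE_00056970) had 10.7, 11.2 and 13.2 TPM in plankton and 7.88, 8.44 and 6.96 TPM in control tanks (0.54 ± 0.18, adjusted p = 0.02), where the plankton tanks lay nearer to the BW0 pools (10.7 to 15.1 TPM). Cldn23 (LABE_00033521) had 3.93, 3.57 and 3.68 TPM in plankton and 2.76, 2.73 and 1.77 TPM in control tanks (0.48 ± 0.16, adjusted p = 0.0225). Neither row overlapped between the diets, though how many of all genes lay apart at BW2 was not counted. The CLDN11 call was lost without tank B9 (0.46) or B10 (0.47), without the doubtful pools (0.47) and without the pools with a spaced title (0.39). That of Cldn23 was lost without B5 (0.46), B8 (0.55) or B10 (0.33), and without the pools with a spaced title (0.38). None of CLDN22, CLDN11 and Cldn23 was called in the fit of BW2 alone.

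After BW2 a single claudin was called for diet. At BW4, CLDN19 (LABE_00067697) had 41.9, 38.7 and 40.2 TPM in plankton tanks, against 20.1, 20.8 and 18.7 TPM in control tanks (1.02 ± 0.25, adjusted p = 0.0364), while 0.431% of all genes were higher and 0.236% lower. The groups lay far apart. The call was nevertheless lost when any of the 6 tanks was left out, with differences of 0.96 to 1.06, when no filter on low values was used (1.02) and without the pools with a spaced title (1.02). From BW4 to BW5 the row rose by 1.18 in control tanks alone and by 0.32 in plankton tanks alone, so that the gap was narrower at BW5. At BW6 plankton tanks were above control tanks, at 53.3, 73 and 59.5 TPM against 50.5, 25.2 and 45.9 TPM. That difference of 0.72 ± 0.25 was not called (adjusted p = 0.239). Unadjusted p-values under 0.05 were found for 2 claudins at BW4.

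No claudin was called for diet in limma at BW3, where 0.141% of all genes were higher and 0.141% lower in plankton tanks and 6 claudins had an unadjusted p under 0.05. The same held at BW5 (0.159% and 0.141%, 2 claudins), at BW6 (0.518% and 0.286%, 7 claudins) and at BW7 (0.0726% and 0.0136%, 2 claudins). The shares of all genes are at adjusted p under 0.05 and cannot be set against these claudin counts. How many of all genes had an unadjusted p under 0.05 was not counted, here or at BW4. Over the claudins the median diet difference at these 4 stages lay between -0.02 and 0.05.

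Whether the diet difference itself changed over the fed stages was tested with limma's F test of the diet-by-stage interaction, adjusted over all genes. It was called for 4 claudins, 9.09%, while 10.6% of all genes passed. These were cldnd LABE_00019609 (adjusted p = 0.00303), CLDN6 LABE_00055849 (0.00738), CLDN14 LABE_00058972 (0.0411) and CLDN19 LABE_00067697 (0.0497). The same 4 rows passed the F test of diet at any stage, which 16.1% of all genes passed. For cldnd the differences at BW3 to BW7 were 0.33, -0.18, 0.17, 0.05 and 0.04, so that the gap of -1.31 at BW2 had no counterpart later. For CLDN6 they were -0.39, 0.05, -0.15, 0.27 and -0.06 after 0.88 at BW2.

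CLDN14 (LABE_00058972) showed a run of differences none of which was called at a single stage. At BW2 the diets overlapped, with 2.81, 0.213 and 0.487 TPM in plankton and 2.25, 3.37 and 1.42 TPM in control tanks (-0.63 ± 0.28, adjusted p = 0.0935). Plankton tanks had 3.63, 6.35 and 2.63 TPM at BW3, against 7.7, 8.49 and 8.87 TPM in control tanks (-0.84 ± 0.28, adjusted p = 0.415). At BW4 plankton tanks had 7.26, 5.54 and 6.67 TPM, against 9.35, 8.94 and 7.85 TPM in control tanks (-0.37 ± 0.28). At BW5 plankton tanks had 5.87, 5.67 and 4.51 TPM, against 10.6, 9.31 and 12.5 TPM in control tanks (-0.91 ± 0.28, adjusted p = 0.326). The diets did not overlap at these 3 stages, with plankton lower each time. How many of all genes lie apart in this way was not counted, and this row was added after its values were seen. At BW6 the order was reversed, with 3.35, 4.49 and 3.96 TPM in plankton and 2.95, 1.95 and 1.84 TPM in control tanks (0.70 ± 0.28, adjusted p = 0.422). At BW7 the diets overlapped (-0.17 ± 0.28). The larvae of the 2 diets differed in age at BW3 to BW5, so that diet and age cannot be told apart at these stages.

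**Figure D4:**
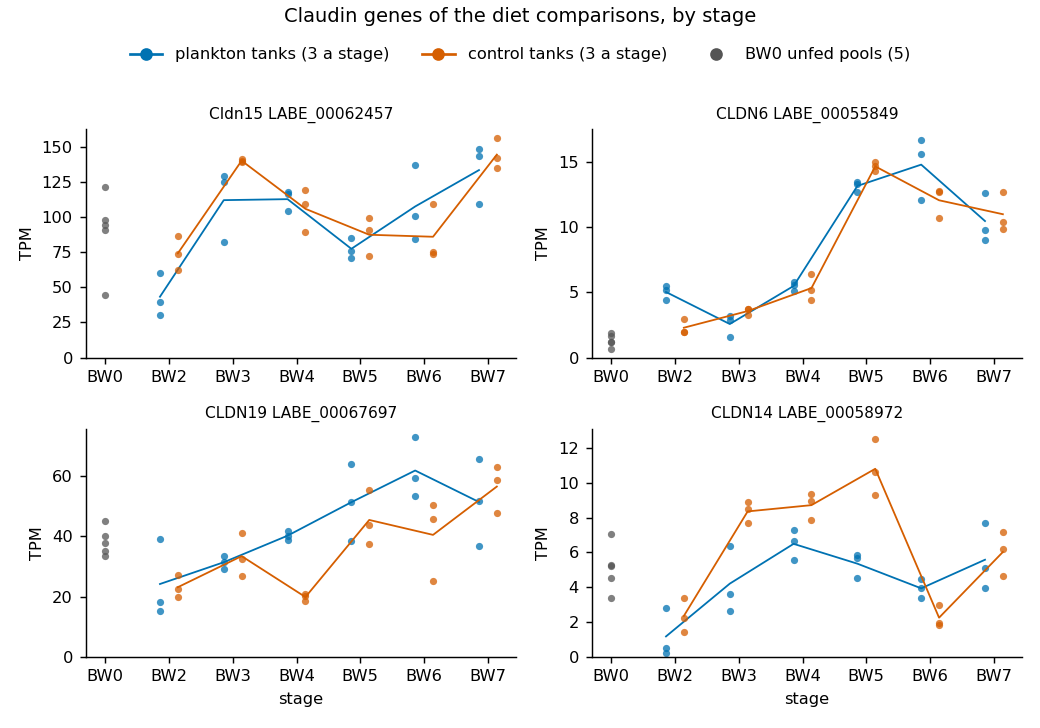
TPM on the y axis against stage on the x axis for 4 claudins of the diet comparisons. Points are tanks (blue plankton, orange control) or unfed pools (grey), and lines join the means of 3 tanks. Plankton and control tanks of CLDN19 lie at 38.7 to 41.9 and 18.7 to 20.8 TPM at BW4, and those of CLDN14 at 4.51 to 5.87 and 9.31 to 12.5 TPM at BW5.

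The other proteins of the tight junction were followed through a list of 73 rows, of which 67 were tested. At BW7 compared with BW2, 21 were higher and 20 lower (median 0.08), 31.3% and 29.9%, beside the 34.7% and 38% of all genes given above. After size factors 27 were higher and 16 lower, 40.3% and 23.9%, beside 41.5% and 36.1% of all genes. The lower end was led by PARD3B (LABE_00025279 and LABE_00025277, -2.58 ± 0.25 and -2.57 ± 0.24), a polarity protein that was matched through an appended letter and is a separate gene from PARD3. They were followed by the scaffold TJP1 (LABE_00005525), at 4.08 TPM ± 0.246 at BW7 and 13 TPM ± 3.59 at BW2 (-1.41 ± 0.10), and the scaffold MAGI1 (LABE_00008201, -1.40 ± 0.09). The higher end was led by Magi2 (LABE_00014580, 1.63 ± 0.28), the vesicle traffic protein rab13 (LABE_00022742), at 14.8 TPM ± 0.868 at BW7 and 5.64 TPM ± 3.57 at BW2 (1.48 ± 0.19), the cingulin relative CGNL1 (LABE_00048456, 1.05 ± 0.13) and the adhesion molecule JAM3 (LABE_00007705, 0.94 ± 0.28), which was not called in control tanks alone (0.50). Split names were thus seen here too, as JAM3 (LABE_00004654) was lower by -1.05 ± 0.18.

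In the step from BW5 to BW6, 16 of the 67 other junction rows were higher and 11 lower (median -0.04), 23.9% and 16.4%, beside 18.1% and 24.4% of all genes. After size factors they were 19 and 11, 28.4% and 16.4%, beside 24.7% and 22.3%. For diet, 11 were higher and 4 lower in plankton tanks at BW2, 16.4% and 5.97%, beside 9.49% and 19.7% of all genes, and 0 were called at BW3 to BW7. After size factors 19 were higher and 4 lower at BW2, 28.4% and 5.97%, beside 19.2% and 16.7% of all genes. The balance turned without the doubtful pools, with 7 higher and 16 lower, 10.4% and 23.9%, beside 9.62% and 32.1% of all genes. Among the higher rows were PARD3B (LABE_00025279, 1.06 ± 0.36, and LABE_00025277, 1.05 ± 0.34) and occludin (OCLN, LABE_00030765), at 13.6 TPM ± 2.1 in plankton and 7.68 TPM ± 1.98 in control tanks (0.75 ± 0.17, adjusted p = 0.0014, n = 3 each by limma). Among the lower rows were JAM2 (LABE_00045110), at 3.83 TPM ± 1.1 in plankton and 9.87 TPM ± 2.78 in control tanks (-1.25 ± 0.20, adjusted p = 1.43e-05), rab13 (LABE_00022742, -0.95 ± 0.27) and SYMPK (LABE_00014895, -0.63 ± 0.12), a protein found at junctions and in the nucleus. The calls of both PARD3B rows were lost without tank B5 (1.09 and 0.91) or B8 (0.67 and 0.93), that of LABE_00025279 also without B7 (0.81), that of LABE_00025277 also without B10 (0.88) and with a pseudocount of 0.1 (1.12), and that of rab13 without B7 (-0.74) or B8 (-0.60). In the fit of BW2 alone PARD3B (LABE_00025279, 1.06) and rab13 (-0.95) were not called.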

How the data were processed

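Per the labels' protocols, RNA of the pools was enriched with oligo(dT) beads. The authors deposited TPM per gene, and the submitters' processing notes name Salmon and edgeR without versions or roles. The depth is unknown, so counting intervals could not be given. No library pair was identical.

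The log2(TPM + 1) values of a tank's pools were averaged, which gave 36 tank libraries and 5 of BW0. A gene was tested if at least 3 of these 41 libraries had 1 TPM or more. One limma fit (version 3.58.1, with trend, R 4.3.3) of the 13 groups gave the diet contrasts, the steps (diets weighted equally) and BW7 minus BW2. The pseudocount shrinks differences of low genes. Python 3.11.15, numpy 2.4.6, pandas 2.3.3, matplotlib 3.10.9 and data.table (version 1.17.8) were also used. The fit was tested on simulated data.

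The members, the other tight junction list and the marker lists were chosen with earlier results of these data known. Genes were named by rule: the 5 of highest mean level, and the called members with the largest differences, up to 5 per direction for BW7 minus BW2, 3 per step (both with a group mean of at least 5 TPM) and 6 per diet comparison. Of the other junction list, up to 4 per direction for BW7 minus BW2 and 3 per diet comparison were named. Other rows of these names and the diet-by-stage rows were added after their values were seen, as were the scaling of the stage of highest mean and the alternatives for the junction and marker lists. Alternatives were another pseudocount, other filters, size factors, single pools, left-out tanks and pools, each diet or stage alone and a tank block. The enterocyte marker SI was left out, since names cut at a colon read the same. Sequences and positions were not analysed here.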

Additional observations from a re-analysis of the deposited data

Results flagged for a closer look

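Among the 5 BW0 pools, pool R3 was the lowest by a wide gap for 3 of the claudins named above. Its gap to the next pool was 0.768 of the range for cldnd (LABE_00019609), 0.72 for Cldn4 (LABE_00019610) and 0.726 for cldn7a (LABE_00039162), each above Dixon's critical value of 0.71 for 5 samples. R3 had 27.8, 10.4 and 10.7 TPM for these rows, and the other pools 35.1 to 37.3, 69.5 to 92.5 and 26.3 to 32.2 TPM. These were 3 of 24 such tests, and chance alone passes about 1 in 20. The tests share the same 5 pools and are not independent, so their number cannot be set against that rate. R3 is among the 9 pools that correlated better with another group, and it is the only BW0 pool whose title has no space after BW.

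The diet difference changed over the fed stages, by limma's interaction F test with adjusted p-values over all genes, in cldnd (LABE_00019609, 0.00303), CLDN6 (LABE_00055849, 0.00738), CLDN14 (LABE_00058972, 0.0411) and CLDN19 (LABE_00067697, 0.0497). These are 4 of 44 claudins, 9.09%, while 10.6% of all genes passed the same test. Ages differed between the diets at BW3 to BW5, so that diet and age cannot be told apart there.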

How the results depend on the processing

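Of 51 single-gene results, 28 kept their direction and call in every alternative run, and of 823 values under alternatives 750 kept the call, 73 lost it and 0 changed sign. Counts of called claudins moved by over 1.5 times as follows, and the cause was not tested. For diet at BW2 they were 10 without the 9 doubtful pools and 3 in the fit of BW2 alone, against 6. For diet at BW4 the count of 1 became 0 with no filter, without any 1 tank and without the 9 pools whose title has a space, and at BW5 it was 1 with each pool as a replicate, against 0. BW2 minus BW0 gave 12 with size factors, against 32, where 21.6% of all genes were higher and 21.6% lower, against 3.8% and 59.4%. It also moved without the spaced titles, which leaves 1 BW0 pool, with a median of -0.46 for claudins and -0.17 for all genes. In single diets, with fewer tanks, BW3 minus BW2 gave 12 (control) against 26, BW4 minus BW3 7 (plankton) against 12, BW5 minus BW4 4 (plankton) and 10 (control) against 17, BW6 minus BW5 5 (plankton) and 9 (control) against 17, and BW7 minus BW6 6 (plankton) and 9 (control) against 14. Fewer of all genes were called in these fits too. For BW3 minus BW2 in control tanks 39% were higher, against 63.3%. For BW4 minus BW3 in plankton tanks 4.46% were lower, against 22.8%. For BW5 minus BW4 in plankton tanks 13.8% were lower, against 39.1%. The drop in calls was thus not particular to the claudins. Leaving out 1 tank or BW0 pool gave 4 to 7 for diet at BW2, 0 to 0 at BW4, 26 to 32 for BW2 minus BW0, 19 to 26 for BW3 minus BW2, 10 to 12 for BW4 minus BW3, 12 to 14 for BW5 minus BW4, 11 (without B9) to 17 for BW6 minus BW5, 9 (without B5) to 13 for BW7 minus BW6 and 26 to 32 for BW7 minus BW2. Shares of all genes moved in these fits as well, for BW3 minus BW2 without B10 to 56.3% higher, against 63.3%. For BW7 minus BW2 without B8 they were 35.2% higher and 34.2% lower, against 34.7% and 38%. Tank as a replicate block (correlation 0.0364) gave 18 for BW5 minus BW4, against 17, and the same genes in all other comparisons. Deviations of a tank at different stages had a mean r of 0.0163, so tanks share little beyond their number. Depth is unknown, so the precision of low rows could not be given.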

Other observations

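At BW7 the 5 claudins of highest stage mean were Cldn15 (LABE_00062457) at 139 TPM, cldn7a (LABE_00009382) at 74.7 TPM, CLDN19 (LABE_00067697) at 54 TPM, Cldn4 (LABE_00039329) at 52.7 TPM and Cldn4 (LABE_00045799) at 39.8 TPM. In the unfed larvae they were Cldn4 (LABE_00039329) at 104 TPM, Cldn15 at 89.8 TPM, cldn7a at 78.3 TPM, Cldn4 (LABE_00019610) at 66.7 TPM and CLDN5 (LABE_00036182) at 52.3 TPM. Cldn15 alone made up 20.6% of the claudin sum at BW7 and 10.4% at BW0, while Cldn4 (LABE_00019610) made up 1.88% at BW7 and 7.71% at BW0. TPM is scaled to transcript length, which allows this comparison between genes.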
